A study of Mus musculus with 6 samples.

Results

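The genes described are the drug efflux pumps Abcb1a, Abcb1b, Abcc1, Abcc2, Abcc3, Abcc4 and Abcg2 and the foreign-chemical sensors Nr1i2, Nr1i3 and Ahr, 10 of the 27179 genes in the deposited table, taken by their symbols. They were measured by RNA sequencing in organoids, cultures of crypt epithelium grown in a gel matrix from the small intestine of wild-type (WT) mice. The samples were organoids given the thyroid hormone T3 at 1e-07 M for 17 h (3 libraries) and organoids given its vehicle for the same 17 h (3 libraries). All cultures shared the WT genotype and the Intesticult medium, and the labels give neither the age of the mice nor the culture or animal behind each library. The p-values therefore rest on the variation among these 6 libraries, and that variation could be purely technical.

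Efflux pumps of the ABC family use ATP to move drugs, toxins, bile pigments and conjugated metabolites out of cells. In the intestinal epithelium, pumps of the apical membrane return such compounds to the gut lumen, and those of the basolateral membrane pass them towards the blood. PXR (gene Nr1i2), CAR (gene Nr1i3) and AHR (gene Ahr) are receptors that detect foreign or dietary chemicals and switch on genes of drug oxidation, conjugation and efflux. PXR and CAR are nuclear receptors that, like the T3 receptors, bind DNA together with RXR, whereas AHR belongs to another family and binds DNA with ARNT.

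Values are reads per gene that the authors scaled between libraries and rounded, called normalized reads here, and they summed to 29510422 to 29974091 in the T3 libraries and to 28197080 to 28611883 in the vehicle libraries. Klf9, a transcription factor known to be induced by T3, stood at 2080, 2201 and 2151 normalized reads with T3, against 362, 329 and 366 with vehicle, a rise of 6.08-fold. Summed markers of enterocytes and of stem, Paneth, goblet and enteroendocrine cells of the small-intestinal epithelium were abundant in every library. Tuft cell markers were low, with sums of 199 to 232 with T3 and 241 to 342 with vehicle. Alb, the defining marker of liver, had 18 to 29 normalized reads in the 6 libraries, and Car1, a marker of colon, was at 0. Apob of the liver list and Slc26a3 of the colon and stomach list, which the small intestine also expresses, were well expressed. Cyp2e1 of the liver list had 5, 13 and 7 normalized reads with T3, against 15, 11 and 23 with vehicle. Of the stomach genes, Atp4a had 65, 76 and 73 normalized reads with T3, against 124, 140 and 144 with vehicle. Pgc had 30, 38 and 40 with T3, against 14, 7 and 9 with vehicle. Ttr, a further gene of the liver list, had 582, 673 and 553 normalized reads with T3, against 1942, 2007 and 2092 with vehicle, a fall of 3.35-fold. Immune markers summed to 39 to 64 with T3 and 48 to 57 with vehicle, and endothelial markers summed to 7 to 9 with T3 and 12 with vehicle, with Cdh5 and Kdr at 0. Fibroblast and smooth muscle markers summed to 178 to 255 with T3 and 235 to 308 with vehicle, nearly all of it Vim. The summed level of 9 enterocyte markers, 6 of them called higher and 1 lower, was 111611 to 128111 with T3 and 66419 to 71994 with vehicle, and that of 4 stem cell markers, all 4 called lower, 20840 to 23046 with T3 and 49837 to 57082 with vehicle. The part of this shift in the results below was not tested.

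Most of the efflux pumps were lower with T3, by modest amounts. Calls rest on an adjusted p below 0.05 (limma with Benjamini-Hochberg adjustment over the 13052 genes that had at least 10 normalized reads in at least 3 libraries, a filter that all 10 genes passed). Of the 7 pumps 5 fell, namely Abcc3, Abcc4, Abcc2, Abcb1a and Abcg2, and 2 were not called. Among the 3 sensors Nr1i3 fell, Nr1i2 rose and Ahr was not called. The 7 calls among the 10 genes, 6 lower and 1 higher, stand beside 44.8% called over all genes tested, 20.8% lower and 24.0% higher. Over all genes, the calls were higher in 53.6% of cases, but in 38.7% with equal column totals and 40.4% with upper-quartile scaling. The median log2 fold change was -0.38 over the 10 genes and -0.01 over all genes tested. Among the 10 genes 6 had T3 and vehicle libraries that did not overlap, where 54.9% of all genes tested had none. In bulk RNA, fewer cells of a type and less RNA per cell cannot be told apart.

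**Figure D1:**
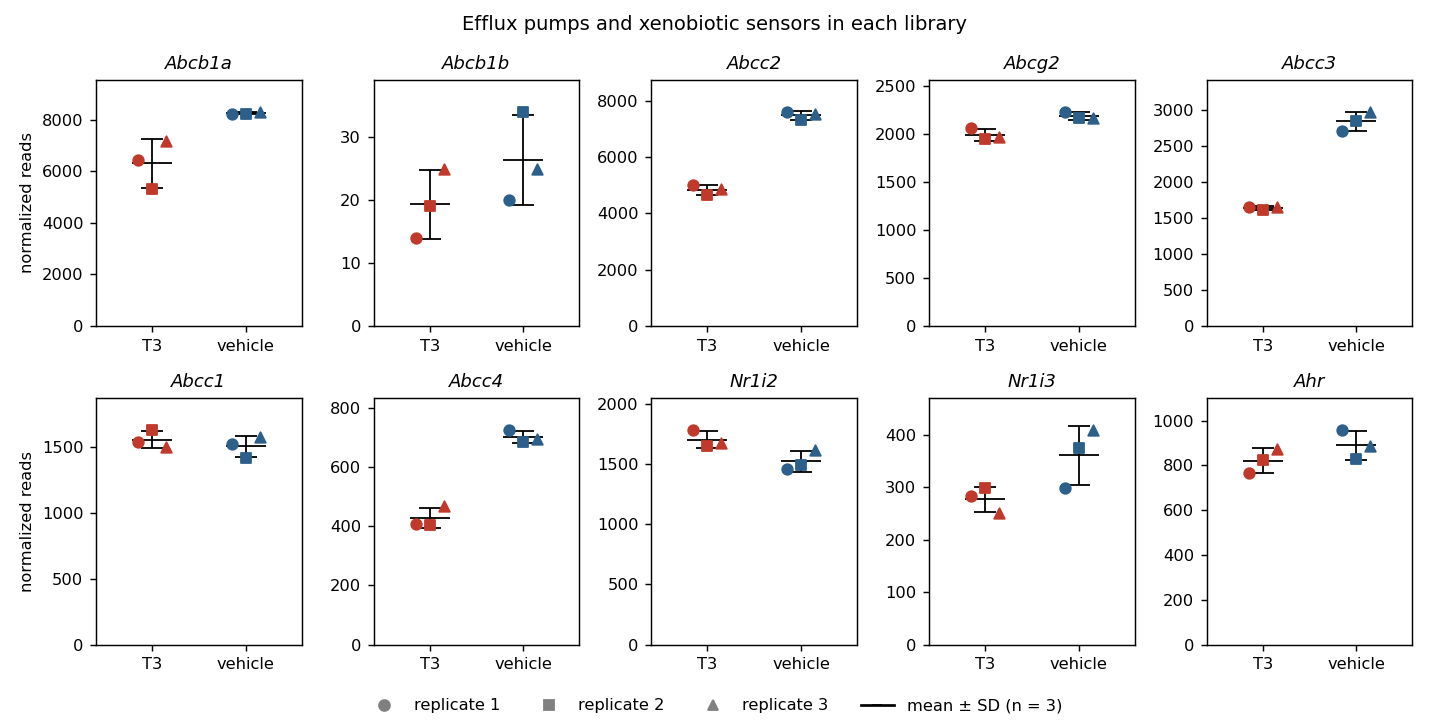
Normalized reads of each gene (vertical axis, linear from 0) in the 3 T3 libraries (red, left) and the 3 vehicle libraries (blue, right), with the group mean and SD as black bars; marker shapes give the replicate number. The T3 points lie below all vehicle points for Abcb1a, Abcc2, Abcg2, Abcc3 and Abcc4, above them for Nr1i2, and among or touching them for the other genes.

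The start regions of Abcc2 and Abcc4 are shown because both pumps fell clearly and RefSeq (GRCm38.p6) places their start where the deposited gene model begins. RefSeq windows were matched for 7 of the 10 genes, and no window was given for Abcc1, Abcc3 and Ahr. Of the 10 windows, 6 end at the deposited gene start, for Abcb1b, Abcc2, Abcc4, Abcg2, Nr1i2 and Nr1i3. The 250 bases before the start were searched on both strands for GCGTG (the core bound by AHR), AGGTCA (the core element of nuclear receptors, those of T3 and PXR included) and TGACNNNGC (the core of the antioxidant element). Capitals mark the matches, written 5′ to 3′ on the gene's strand, from chr19:43782058-43782307 on the plus strand for Abcc2 and chr14:118706220-118706469 on the minus strand for Abcc4.
Abcc2: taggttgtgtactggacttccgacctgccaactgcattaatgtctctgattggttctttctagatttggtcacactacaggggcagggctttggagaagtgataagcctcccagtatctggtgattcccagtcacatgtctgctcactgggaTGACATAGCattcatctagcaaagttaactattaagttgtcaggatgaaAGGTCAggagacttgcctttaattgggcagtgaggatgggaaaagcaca
Abcc4: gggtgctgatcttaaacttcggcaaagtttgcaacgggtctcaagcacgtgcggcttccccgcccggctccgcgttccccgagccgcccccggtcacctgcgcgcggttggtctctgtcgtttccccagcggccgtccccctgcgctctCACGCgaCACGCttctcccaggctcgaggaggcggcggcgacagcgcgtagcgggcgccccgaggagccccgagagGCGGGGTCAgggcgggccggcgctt

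In Abcc2 the AGGTCA match starts at position -49 and the TGACNNNGC match at -98, counted back from the start site, and neither overlaps the other. A longer Abcc2 transcript in the GENCODE annotation begins inside this window, 116 bases before the RefSeq start. Both Abcc2 matches lie downstream of that earlier start, so they are upstream only of the RefSeq start. Abcc4 holds GCGTG on the opposite strand at positions -101 and -94, written CACGC above, and TGACNNNGC on the opposite strand at -25, with no overlap between them. Over all 32851 RefSeq windows of this length, 28.2% hold GCGTG, 14.0% AGGTCA and 10.2% TGACNNNGC. The windows of Abcb1b, Abcg2, Nr1i2 and Nr1i3 that end at the deposited start hold none of these letters. Other Abcg2 windows, 12139 and 43874 bases from the deposited start, hold 2 AGGTCA matches and 1. Another Abcc4 window, 29288 bases from the deposited start of Abcc4, holds 1 TGACNNNGC match. The Abcb1a window, 93001 bases from its deposited start, holds none. The Abcc2 window has 45.6% G and C, that of Abcc4 72.0%. These matches describe letters and not sites in use.

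Among the pumps of the apical membrane, Abcb1a, Abcc2 and Abcg2 fell by different amounts. Abcc2 (MRP2, which exports glutathione and glucuronide conjugates; gene ID 12780, mm10 chromosome 19, 43782308 to 43838218, 32 exons) had 4993, 4652 and 4879 normalized reads with T3, against 7609, 7306 and 7530 with vehicle. The groups lie well apart, and the fall was 1.55-fold (log2 -0.63 ± 0.04 SE, 95% interval -0.72 to -0.54, adjusted p = 1.73e-06). Abcb1a (P-glycoprotein, which expels many lipophilic drugs; gene ID 18671, chromosome 5, 8660092 to 8748570, 28 exons) had 6429, 5320 and 7179 normalized reads with T3, against 8231, 8242 and 8313 with vehicle. All T3 libraries were lower than all vehicle libraries, but they differed far more among themselves, with an SD of 935 against 44.5 in the vehicle group. The fall of Abcb1a was 1.32-fold (log2 -0.40 ± 0.09 SE, adjusted p = 0.00484). The log2 difference was -0.28 without T3 replicate 2, the lowest library, and -0.50 without T3 replicate 3, the highest, and the call held in both cases.

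Abcg2 (BCRP, an apical exporter of drugs, urate and dietary chemicals; gene ID 26357, chromosome 6, 58596672 to 58692451, 16 exons) changed least among the pumps called. It had 2063, 1950 and 1967 normalized reads with T3, against 2233, 2171 and 2165 with vehicle, a fall to 91.0% of vehicle (interval 85.4% to 97.0%, adjusted p = 0.0229). The groups did not overlap, though the gap between them was small. The call was lost without T3 replicate 2 (adjusted p = 0.084), vehicle replicate 1 (0.0566) or vehicle replicate 2 (0.0571), and the authors' deposited table gives Abcg2 an adjusted p of 0.0733.

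Abcb1b, the second mouse gene for P-glycoprotein (gene ID 18669, chromosome 5, 8798147 to 8866314, 28 exons), was barely detected. It had 14, 19 and 25 normalized reads with T3, against 20, 34 and 25 with vehicle, so the groups overlapped and no difference was called (log2 -0.43, interval -1.08 to 0.21, adjusted p = 0.255). Abcb1a made up 99.7% ± 0.0776 of the sum of both genes with T3 and 99.7% ± 0.0856 with vehicle (SD, n = 3 each), a difference with p = 0.9 in a two-sided exact permutation test, which cannot go below 0.1 at this size. The genes share sequence: of the 50-base windows in the longest coding transcript, 18.0% in Abcb1b also occur in Abcb1a, and 15.5% in Abcb1a also occur in Abcb1b. Reads from the shared stretches may have been counted for the wrong gene or dropped, so the low Abcb1b values are uncertain.

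The basolateral pump Abcc3 had the largest estimated fall in relative terms. Its interval overlaps those of Abcc4 (log2 -0.88 to -0.55), Abcc2 (-0.72 to -0.54) and the barely detected Abcb1b (-1.08 to 0.21). Abcc3 (MRP3, which exports bile acids and glucuronides towards the blood; gene ID 76408, chromosome 11, 94343295 to 94392976, 31 exons) had 1661, 1617 and 1657 normalized reads with T3, against 2712, 2850 and 2981 with vehicle. The T3 libraries agree closely and sit far below the vehicle libraries, a fall of 1.73-fold (log2 -0.79 ± 0.05 SE, interval -0.89 to -0.69, adjusted p = 8.61e-07). Abcc1 (MRP1, a basolateral exporter of glutathione conjugates; gene ID 17250, chromosome 16, 14361558 to 14474878, 31 exons) had 1541, 1626 and 1500 normalized reads with T3, against 1526, 1416 and 1572 with vehicle. These groups overlapped, and the difference was not called (adjusted p = 0.494). Its interval runs from 95.1% to 112% of vehicle and so does not reach falls of the size seen in Abcc2 or Abcc3, and its sign flips, uncalled, to log2 -0.02 with equal column totals and -0.01 with upper-quartile scaling.

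Abcc4 (MRP4, which exports cyclic nucleotides, prostaglandins and nucleoside drugs; gene ID 239273, chromosome 14, 118482692 to 118706219, 32 exons) was a weakly expressed pump that also fell. It had 408, 405 and 467 normalized reads with T3, against 723, 684 and 694 with vehicle. No T3 library came near the vehicle libraries, and the fall was 1.64-fold (log2 -0.72 ± 0.07 SE, adjusted p = 3.82e-05). Across the 15 other fits tried (other scalings, filters, pseudocounts and variance models, a block, and each library left out), the calls of Abcc2, Abcc3, Abcc4 and Abcb1a held in all 15.

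**Figure D2:**
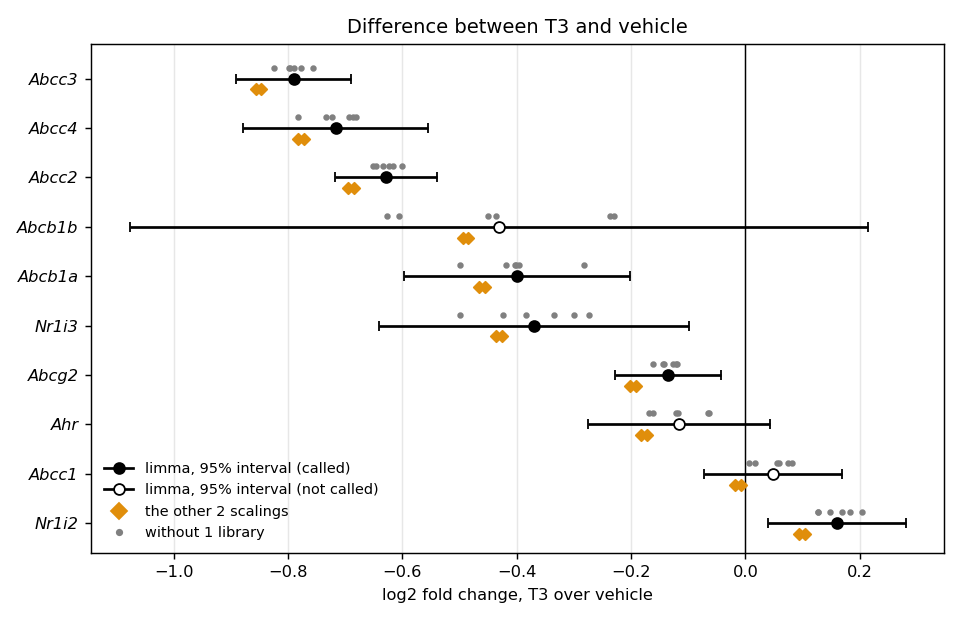
Log2 fold change of T3 over vehicle (horizontal axis) for each gene, with the 95% interval from limma (black, filled where called), the values under 2 other scalings (orange) and without each library in turn (grey). The fold changes drawn stay below 0 for all genes except Nr1i2, which stays above it, and Abcc1, which crosses 0 with the other scalings. The intervals of Abcb1b, Ahr and Abcc1 include 0, and that of Abcb1b is the widest.

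Compared per kilobase of exon, which sets genes of different length on the same scale, the pumps differed widely in level. Mean normalized reads per kilobase were 1268 with T3 and 1660 with vehicle for Abcb1a, 898 and 1388 for Abcc2, and 800.2 and 879 for Abcg2. These apical pumps led the order in both groups, with no overlap between neighbours. Abcc3 followed at 329 with T3 and 569 with vehicle, Abcc1 at 262 and 253.5, Abcc4 at 72.4 and 119, and Abcb1b at 4.45 and 6.06. Of the sensors Nr1i2 was the most abundant, at 674 with T3 and 603 with vehicle, against 196 and 254.8 for Nr1i3 and 149.6 and 162 for Ahr. In the vehicle libraries the ranges of Nr1i2 and Abcc3 overlapped, as did those of Nr1i3 and Abcc1, whereas in the T3 libraries both pairs were apart.

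**Figure D3:**
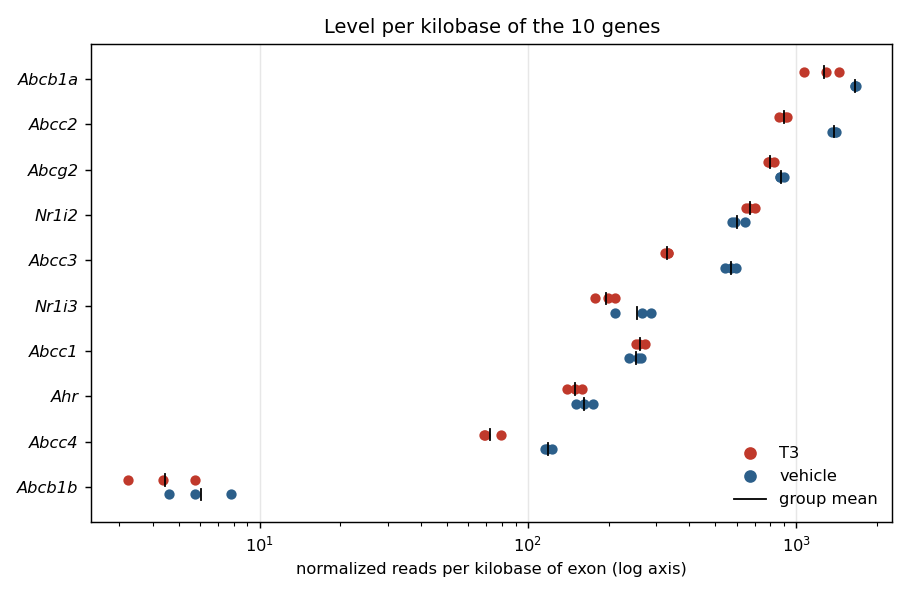
Normalized reads per kilobase of exon (horizontal log axis) for each gene in the T3 libraries (red, upper row) and the vehicle libraries (blue, lower row), with group means as black ticks. The apical pumps Abcb1a, Abcc2 and Abcg2 lead, Abcb1b lies far below the rest, and the T3 and vehicle points of Abcc3 are clearly separated.

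Together the 7 pumps summed to 3385 to 3806 normalized reads per kilobase in the T3 libraries and to 4815 to 4921 in the vehicle libraries, ranges that do not overlap. The unequal falls changed the make-up of this sum. Abcc2 made up 24.8% ± 0.878 with T3 and 28.5% ± 0.371 with vehicle, and Abcc3 9.07% ± 0.435 with T3 and 11.7% ± 0.527 with vehicle (SD, n = 3 each). The pumps that fell little or not at all gained share, with Abcg2 at 22.1% ± 1.21 with T3 and 18.0% ± 0.342 with vehicle and Abcc1 at 7.24% ± 0.757 with T3 and 5.20% ± 0.22 with vehicle. Abcb1a held 34.8% ± 3.16 with T3 and 34.1% ± 0.296 with vehicle. These shares are a description with no test, since a fall in a pump raises the share of the others.

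Among the sensors Nr1i3 fell by about as much as Abcb1a, Nr1i2 rose slightly and Ahr was not called. Nr1i2 (PXR; gene ID 18171, chromosome 16, 38248349 to 38294824, 9 exons) had 1781, 1647 and 1679 normalized reads with T3, against 1456, 1497 and 1621 with vehicle. The groups were separate by a narrow margin, and the rise to 112% of vehicle (interval 103% to 121%) had an adjusted p of 0.0357. That call held in 7 of the 15 other fits. It was lost with equal column totals (log2 0.09, adjusted p = 0.176) or upper-quartile scaling (log2 0.10, adjusted p = 0.143), and also without T3 replicate 1 (adjusted p = 0.145), vehicle replicate 1 (0.097) or vehicle replicate 2 (0.106), and the authors' deposited table gives 0.0655.

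Nr1i3 (CAR; gene ID 12355, chromosome 1, 171213970 to 171218845, 9 exons) had 282, 298 and 251 normalized reads with T3, against 298, 375 and 408 with vehicle. The groups touch at 298, and the fall was 1.29-fold (log2 -0.37 ± 0.12 SE, adjusted p = 0.0316), a call lost without T3 replicate 1 (adjusted p = 0.0725), T3 replicate 3 (0.0842), vehicle replicate 2 (0.0949) or vehicle replicate 3 (0.122). Its exons share 257 bases with Tomm40l, a mitochondrial import gene on the opposite strand, which had 1702, 1586 and 1713 normalized reads with T3, against 1313, 1395 and 1298 with vehicle. Tomm40l thus rose, opposite to Nr1i3. The labels call the libraries directional, but no source used here says whether the counting used strand, so in the shared stretch reads of the 2 genes cannot be told apart.

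Ahr (gene ID 11622, chromosome 12, 35497979 to 35534989, 11 exons) had 765, 826 and 874 normalized reads with T3, against 957, 828 and 888 with vehicle. The groups overlapped and the difference was not called (log2 -0.12, interval -0.28 to 0.04, adjusted p = 0.213). Of the tested partners and brakes of the sensors, 3 of 10 rose and 2 fell, with a median log2 fold change of 0.07. For all genes tested, 24.0% were called higher and 20.8% lower. Rxra, the nuclear receptor that pairs with PXR and CAR, rose 1.12-fold (adjusted p = 0.00943), a call lost with equal column totals (0.0796) and upper-quartile scaling (0.0555). Tiparp, described with the AHR targets, also rose. Arnt2, a relative of the AHR partner ARNT, fell 1.98-fold. The chaperone Hsp90ab1, chosen after its values were seen, also fell, a call that held in 11 of the 15 other fits. That call was lost, among others, without T3 replicate 1, T3 replicate 2 or vehicle replicate 1, which leaves 1 gene called lower. Arnt itself was at 1894 ± 58.5 normalized reads with T3 and 1945 ± 48 with vehicle (SD, n = 3 each) and was not called (adjusted p = 0.499). Ahrr, the repressor of AHR, was low at 14.3 ± 1.53 with T3 and 12.7 ± 4.73 with vehicle and was not called (adjusted p = 0.605). Arnt and Ahrr were chosen after their values were seen.

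Genes known as targets of AHR split by direction. Of 6 tested members, 3 fell and 2 rose, beside 20.8% lower and 24.0% higher over all genes tested. Cyp1a1, the oxidase most used as a readout of AHR, had 476, 361 and 587 normalized reads with T3, against 1485, 1367 and 1505 with vehicle, a fall of 3.11-fold (log2 -1.64 ± 0.14 SE, adjusted p = 1.46e-05). Ugt1a6a, which conjugates phenols, had 412, 365 and 378 normalized reads with T3, against 1939, 1600 and 1683 with vehicle, a fall of 4.50-fold (adjusted p = 4.91e-08). For both the groups lie far apart. Nqo1, a quinone reductase that also appears in the list of NRF2 targets, fell 1.39-fold. Tiparp, which is induced by AHR and limits it, went the other way, with 2262, 2438 and 2030 normalized reads with T3, against 1027, 991 and 932 with vehicle, a rise of 2.28-fold (adjusted p = 9.48e-07). Cyp1b1, chosen after its values were seen, rose as well, to 39.3 ± 4.51 with T3 against 16.3 ± 7.64 with vehicle, and was too low for the filter of 50 normalized reads. Genes of the Ugt1a locus share their last exons, so their single values are uncertain.

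Genes known as targets of PXR and CAR in mouse liver and gut moved both ways. Of 17 tested 9 fell and 5 rose, with a median log2 fold change of -0.32. The shares over all genes tested were 20.8% lower and 24.0% higher. The aldehyde dehydrogenases Aldh1a1 and Aldh1a7 fell 5.10-fold and 3.96-fold. Cyp3a25 and Cyp3a13, drug-oxidizing enzymes, rose 1.92-fold and 1.52-fold. Of further classical targets, chosen after their values were seen, Cyp3a11 had 2429, 1776 and 2391 normalized reads with T3, against 4301, 4752 and 4432 with vehicle, a fall of 2.06-fold. Cyp2b10, the usual readout of CAR, had 5198, 3728 and 4740 normalized reads with T3, against 6460, 7123 and 7923 with vehicle, a fall of 1.58-fold (adjusted p = 0.00109). Of the 3 T3 libraries, replicate 2 was the lowest for both, as it was for Abcb1a, Abcc2, Abcc3, Abcc4, Abcg2 and Nr1i2, or 6 of the 10 genes described. It was the lowest T3 library for 35.7% of all genes tested. Members of the Cyp3a, Cyp2c and Aldh1a families resemble each other closely, so reads may have been split between them.

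**Figure D4:**
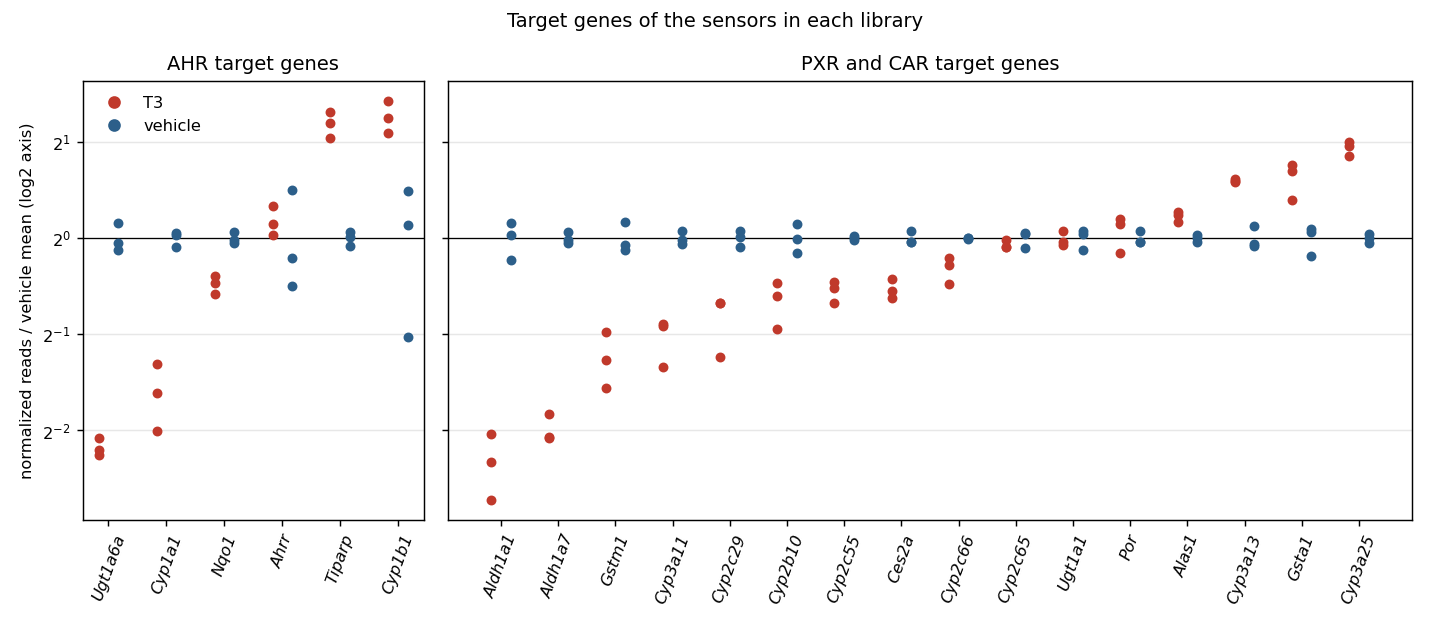
Normalized reads of each target gene divided by its vehicle mean (vertical axis, log2 scale) in the T3 libraries (red) and vehicle libraries (blue), for tested AHR targets (left panel) and tested PXR and CAR targets (right panel, without Sult1a1, whose vehicle level was near 0). T3 points of Ugt1a6a, Cyp1a1, Aldh1a1 and Aldh1a7 lie far below the vehicle points, and those of Tiparp, Cyp1b1 and Cyp3a25 above them.

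Other transporters moved in both directions. Of 12 tested further members of the B, C and G families of ABC transporters 4 rose, 2 fell and 6 were not called, with a median log2 fold change of 0.09. Abcg5 and Abcg8, which together export sterols, rose 3.92-fold and 2.66-fold. Abcb6, a porphyrin transporter, fell 1.37-fold, and Abcc6, known for export of ATP from cells, fell 1.19-fold. Of 11 tested carriers of the SLC and SLCO families that move drugs and nutrients, most of them uptake carriers, 6 rose and 1 fell. Their median log2 fold change was 0.46. Beside the counts of both lists stand 24.0% higher and 20.8% lower over all genes tested. Slco4a1 rose 1.43-fold, Slco3a1 3.18-fold and the carnitine carrier Slc22a5 1.37-fold. The carrier that fell was Slc22a4, and without vehicle replicate 1 the number that fell was 2, the other being Slc47a1, an exporter of organic cations, which had 8, 9 and 17 normalized reads with T3, against 9, 19 and 33 with vehicle. Slco1a1, Slco1a4, Slco1a5 and Slco1a6 were at 0 in all 6 libraries. These, Slc22a4 and Slc47a1 were chosen with their values known. Whether any list differs from the pumps was not tested.

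**Figure D5:**
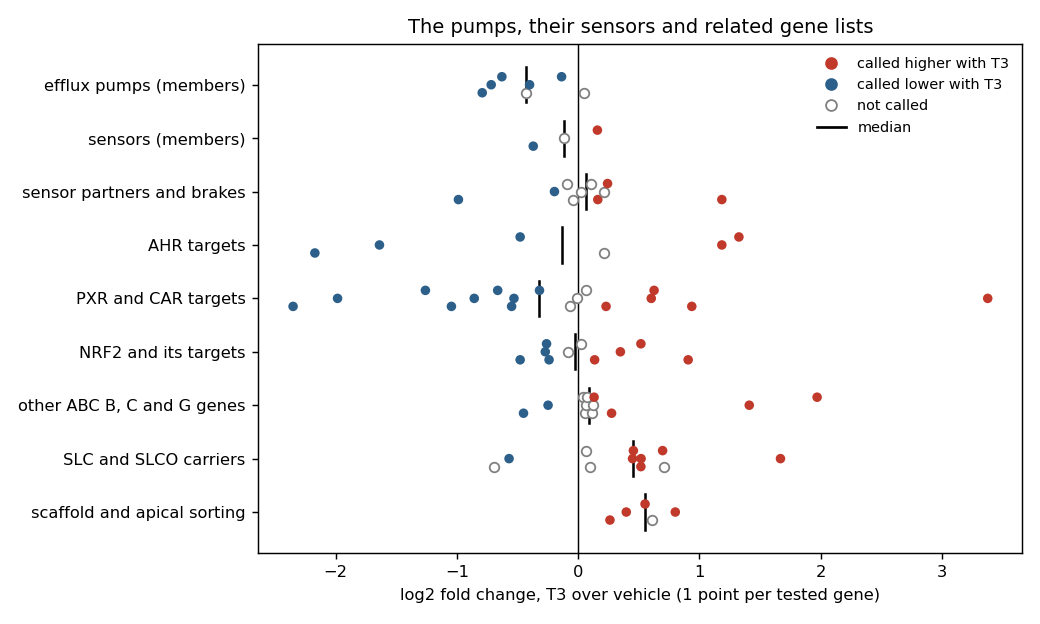
Log2 fold change of T3 over vehicle (horizontal axis) for each tested gene of the pumps, the sensors and 7 related gene lists, coloured by call, with the median of each as a black line. The called pumps all lie left of 0, the called genes of the AHR, PXR and CAR target lists lie on both sides, and most called SLC and SLCO carriers lie to the right.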

How the data were processed

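RNA sequencing was deposited as a table of all genes. Per the file headers the build was mm10. The submitters' processing notes list the tools STAR, Subread and DESeq2, without versions, and no source used here states the strand setting. The sample columns deposited by the authors hold a normalized score, scaled and rounded reads for each gene. Their average over the 6 libraries differs from the authors' mean column by at most 0.833. Raw counts were not used, so the count test planned for them was replaced by the planned fallback. The depth before scaling was not recovered. The authors' deposited log2 fold changes and adjusted p-values compare T3 with vehicle.

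The main test was limma 3.58.1 (statmod 1.5.0, R 4.3.3) on log2(value + 1) with a mean-variance trend and no replicate block, on all 6 libraries and on genes reaching 10 normalized reads in 3 or more of them, adjusted by the Benjamini-Hochberg method over 13052 genes. It was tested on simulated data. Fold changes on this scale understate those of low genes. The exact permutation test used SciPy 1.17.1. Levels per kilobase use the deposited exon length. Alternatives were 2 other scalings, filters of none and 50, pseudocounts of 0.5 and 5, other variance models, a threshold of 0.01, a replicate block and each library left out.

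The genes described and the related lists were chosen with earlier results of these data known. Named from each list are up to 4 called genes, those of smallest p-value, and others are said to be chosen after their values were seen. Some genes that this rule names are not reported here. The lists are targets of AHR, of PXR and CAR and of NRF2 (with Nfe2l2 and Keap1), sensor partners, other ABC transporters, SLC and SLCO carriers and apical scaffold genes. Aldh1a1, Aldh1a7, Nqo1 and other genes with close relatives are reported as counted by the authors. RefSeq windows were matched by symbol.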

Additional observations from a re-analysis of the deposited data

How the results depend on the processing

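The falls of Abcc2, Abcc3, Abcc4 and Abcb1a kept their direction and call under the 15 other fits and at a threshold of 0.01. Of the 10 genes, 1 rose (Nr1i2) in the main result, and 0 rose with equal column totals, upper-quartile scaling, no filter on low values, no mean-variance trend, the replicate block or the threshold of 0.01, and 0 to 1 without single libraries. The number that fell, 6, ran from 4 to 6 over all alternatives. Abcc1, not called in any fit, changed sign to -0.0176 with equal column totals and -0.00737 with upper-quartile scaling (log2). At 0.01 the genes called lower numbered 1753, against 2716. Same-numbered libraries showed no clear shared deviation (correlations -0.0701, 0.0278 and -0.0568), and differently numbered ones ran from -0.0476 to 0.0946. With 3 libraries per group this check cannot exclude a pairing, which the labels do not state. With the replicate block 2933 genes were higher and 2472 lower, and Nr1i2 had an adjusted p of 0.0603, with no other call among the 10 genes changed. The T3 minus vehicle difference in the Abcb1a share, 0.011 percentage points, ran from -0.0356 to 0.0486 without single libraries, and reversed without T3 replicate 1 (-0.0338) or vehicle replicate 2 (-0.0356). Without a filter on low values or without the variance trend the Nr1i3 call was lost (adjusted p = 0.0598 and 0.0737). DESeq2 in place of edgeR was not run, since raw counts were not used. Reads of low genes such as Abcb1b limit what can be detected there.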

Other observations

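Genes that hold pumps at the apical membrane or carry them there rose where they were called. Of 5 tested genes of this list 4 rose and none fell, with a median log2 fold change of 0.55. Across all genes tested 24.0% were called higher and 20.8% lower. Slc9a3r1, an apical scaffold protein that binds membrane transporters, had 6538, 6364 and 6370 normalized reads with T3, against 3684, 3674 and 3692 with vehicle, a rise of 1.74-fold (limma adjusted p = 1.39e-07). The motor Myo5b and the vesicle GTPase Rab11a, which deliver apical membrane proteins, rose 1.47-fold and 1.32-fold, and Ezr, which links the membrane to actin, rose 1.20-fold. The list holds general brush border genes, and enterocyte markers rose in the same libraries, with 6 of 9 called higher. The part of that shift in these rises was not tested.

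Of 10 tested genes in the list of NRF2, a transcription factor of the oxidative stress response, and its targets 4 rose and 4 fell. Among the 4 that rose were the NRF2 gene itself, Nfe2l2 (1.10-fold), and its inhibitor Keap1 (1.27-fold). Both were chosen after their values were seen. The number of listed genes that rose was 2 without T3 replicate 1, T3 replicate 2 or vehicle replicate 2. Calls over all genes tested were 24.0% higher and 20.8% lower. Srxn1, which repairs oxidized peroxiredoxins, had 2713, 2593 and 2607 normalized reads with T3, against 1317, 1448 and 1453 with vehicle, a rise of 1.88-fold (limma adjusted p = 6.69e-07). Nqo1 fell 1.39-fold, and the glutathione genes Gsr and Gclm fell 1.20-fold and 1.21-fold. Srxn1 and these genes are known targets of the same factor.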
